A study of Homo sapiens with 18 samples.

Results

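Chromatin accessibility at the 6 human genes that carry the C/EBP (CCAAT/enhancer-binding protein) name, CEBPA, CEBPB, CEBPD, CEBPE, CEBPG and CEBPZ, was described in a colon fibroblast line. The regions were the peaks of the deposited bulk ATAC-seq count table (hg38) that overlap the GENCODE body of 1 of these genes or the 50000 bp on either side of it, which gave 123 of the 334857 peaks. CEBPB had 29 peaks in its window, CEBPA 24, CEBPE 23, CEBPD 21, CEBPG 19 and CEBPZ 9, and 2 peaks lay in the windows of both CEBPA and CEBPG, which neighbour each other on chromosome 19. Within the windows the rule uses position and no measured value.

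ATAC-seq counts fragments cut by a transposase that enters open chromatin, so that a peak's count reads how accessible a stretch of DNA is. All 18 libraries came from the human colon fibroblast line Ccd18-Co, in 3 groups of 6. The unstimulated libraries have no agent in their labels. The DMSO libraries came from cells given 3 pulses of TNF, OSM and IL-17A at 10 ng/ml each with IL-1B at 0.1 ng/ml, every pulse lasting 72 h with 96 h of recovery, and then, after 1 week of rest, the solvent DMSO for 5 days. The belinostat libraries came from cells with the same pulses and rest, followed by 250 nM belinostat, an inhibitor of histone deacetylases, for 5 days in place of the solvent. The doses here come from GEO's labels. The study's text gives other doses of belinostat and of IL-1B in places. Cells of both pulsed groups were collected 2 weeks after that treatment. Comparisons with the unstimulated group therefore cannot tell the cytokines apart from the solvent or from the handling that went with the pulses. All groups rest on 1 cell line, and the labels do not say that the 6 libraries of a group came from separate experiments, so p-values measure the spread between these libraries.

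C/EBP proteins are basic leucine zipper transcription factors that bind DNA as dimers, with themselves, with each other or with related zipper proteins. C/EBPβ and C/EBPδ are known as inducible members that act with NF-κB and STAT3 downstream of IL-1, TNF, IL-17A and IL-6 family cytokines in fibroblasts and liver. C/EBPα drives differentiation and cell cycle exit in fat, liver and myeloid cells, C/EBPε acts late in granulocyte maturation, C/EBPγ is a widely expressed partner without a strong activation domain, and CEBPZ encodes a nucleolar protein of ribosome assembly that shares the name but not the zipper.

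Sequences of some regions named below are shown first, chosen after the values were seen. For 3 genes whose start lay under a strong peak, the 250 bases before a RefSeq transcript start (GRCh38.p14) are printed in the direction of transcription, at chr19:33302535-33302784 on the minus strand for CEBPA, at chr20:50190333-50190582 on the plus strand for the upstream of 2 listed CEBPB starts, and at chr19:33373459-33373708 on the plus strand for CEBPG. Capitals mark the SP word GGGCGG, the CCAAT word CCAAT and the TATA word TATAAA on either strand, and no C/EBP, AP-1, NF-κB or CRE word was found in these 3 stretches.
CEBPA upstream: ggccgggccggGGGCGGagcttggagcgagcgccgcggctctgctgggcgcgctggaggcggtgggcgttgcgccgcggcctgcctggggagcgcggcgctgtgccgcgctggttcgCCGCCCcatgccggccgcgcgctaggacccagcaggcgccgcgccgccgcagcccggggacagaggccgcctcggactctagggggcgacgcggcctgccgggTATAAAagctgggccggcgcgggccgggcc
CEBPB upstream: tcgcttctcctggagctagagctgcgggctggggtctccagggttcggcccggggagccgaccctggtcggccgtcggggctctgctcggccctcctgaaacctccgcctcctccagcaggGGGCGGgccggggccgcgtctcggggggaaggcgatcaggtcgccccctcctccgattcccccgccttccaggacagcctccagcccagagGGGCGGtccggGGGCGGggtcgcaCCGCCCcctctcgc
CEBPG upstream: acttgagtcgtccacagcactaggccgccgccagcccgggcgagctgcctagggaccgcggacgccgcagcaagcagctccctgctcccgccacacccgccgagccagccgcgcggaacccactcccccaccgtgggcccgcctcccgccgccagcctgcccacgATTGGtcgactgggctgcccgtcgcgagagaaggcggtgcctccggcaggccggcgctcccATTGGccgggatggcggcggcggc
The CEBPA stretch held 2 SP words and a TATA word, the CEBPB stretch 4 SP words, and the CEBPG stretch 2 CCAAT words. The bases before the other CEBPB start, the one used for distances here (chr20:50190580-50190829), held 5 SP words, 1 CCAAT word and 1 TATA word. Among 21613 RefSeq promoters of 300 bases, 56.8% held the SP word, 34.9% the CCAAT word and 9.45% the TATA word on either strand, and 8.70%, 6.17%, 6.50% and 3.57% held the C/EBP, AP-1, NF-κB and CRE words spelled out with the second set.

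The second set holds the central 300 bases, plus strand of hg38, of 4 distal peaks whose count differed between groups. They lie at chr19:33368074-33368373 (centre at -5485 bp from the CEBPG start, intergenic), chr20:50195060-50195359 (at 4380 bp from the CEBPB start, intergenic), chr20:50224739-50225038 (at 34059 bp from the CEBPB start, intergenic) and chr2:37181764-37182063 (at 49682 bp from the CEBPZ start, in an intron of SULT6B1). Distances are from the MANE Select start to the centre of the peak along the gene's own strand, negative upstream. Capitals mark the words TTNNGCAA for C/EBP, TGANTCA for AP-1, GGNNTTTCC for NF-κB, TGACGTNA for CRE, TTCNNNGAA for STAT and GGAATG for TEAD, read on both strands.
CEBPG -5485 bp: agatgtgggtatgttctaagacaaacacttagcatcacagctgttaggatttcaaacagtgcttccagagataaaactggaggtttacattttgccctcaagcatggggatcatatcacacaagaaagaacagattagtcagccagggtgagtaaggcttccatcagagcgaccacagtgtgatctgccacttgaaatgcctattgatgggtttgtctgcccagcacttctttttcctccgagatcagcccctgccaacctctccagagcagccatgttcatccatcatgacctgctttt
CEBPB 4380 bp: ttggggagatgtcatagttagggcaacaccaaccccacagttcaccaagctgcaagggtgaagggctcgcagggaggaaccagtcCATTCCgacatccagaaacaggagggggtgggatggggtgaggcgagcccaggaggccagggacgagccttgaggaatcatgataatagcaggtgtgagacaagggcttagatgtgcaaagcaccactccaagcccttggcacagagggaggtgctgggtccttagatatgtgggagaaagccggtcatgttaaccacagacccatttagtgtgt
CEBPB 34059 bp: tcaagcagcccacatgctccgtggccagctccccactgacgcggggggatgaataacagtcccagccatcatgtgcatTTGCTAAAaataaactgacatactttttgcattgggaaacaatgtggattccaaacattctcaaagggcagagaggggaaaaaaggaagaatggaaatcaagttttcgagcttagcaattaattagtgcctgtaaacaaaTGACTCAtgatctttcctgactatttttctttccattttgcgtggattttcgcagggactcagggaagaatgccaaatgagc
CEBPZ 49682 bp: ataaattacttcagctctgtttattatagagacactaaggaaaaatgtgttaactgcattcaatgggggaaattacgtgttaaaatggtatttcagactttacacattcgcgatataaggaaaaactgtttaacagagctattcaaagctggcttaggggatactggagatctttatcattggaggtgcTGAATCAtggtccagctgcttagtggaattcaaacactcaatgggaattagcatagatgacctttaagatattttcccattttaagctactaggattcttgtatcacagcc
The CEBPB peak at 34059 bp held 1 C/EBP and 1 AP-1 word, the CEBPZ peak 1 AP-1 word, the CEBPB peak at 4380 bp 1 TEAD word, and the CEBPG peak none of the 6. Over the central 300 bases of all 123 peaks, the C/EBP word was found in 10 (8.13%), against 14.1% of all 334857 peaks, and the AP-1 word in 21 (17.1%), against 17.8%. The NF-κB word was in 7 (5.69% against 5.46% of all peaks), the STAT word in 8 (6.50% against 8.70%), the TEAD word in 26 (21.1% against 21.3%) and the CRE word in 0 (against 0.897%). Median GC content was 55.3% for the 123 peaks and 49.7% for all peaks. These matches describe letters in a window and were not tested as binding sites.

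The line was checked against markers by the peak over each gene's start. All 10 fibroblast markers had such a peak, at the 19.3 to 95.6 percentile of start peaks. Of these 4 lay above the median start peak, among them COL1A1 and PDGFRA, and PRRX1, DCN and LUM were lowest (19.3 to 19.6). A start peak was found for 0 of 5 immune, 2 of 6 epithelial and 1 of 4 endothelial markers, none above the 13.6 percentile. Total counts in peaks were 7077321 to 11352032 for the unstimulated group, 6488975 to 8066642 for the DMSO group and 4661678 to 6370845 for the belinostat group. The share of these counts in the 10000 strongest peaks was 36.8% ± 1.26 for unstimulated libraries, 33.1% ± 1.28 for DMSO libraries and 30.9% ± 2.23 for belinostat libraries (SD, n = 6), a difference with an exact two-sided permutation p of 0.00216 between the first pair of groups, the smallest that 6 against 6 allows, and of 0.0714 between the second pair. Their part in the results was not tested, and fewer cells with an open region and less opening per cell cannot be told apart in bulk counts. Fold changes here are log2 differences of counts scaled by TMM factors over all peaks and tested with edgeR's quasi-likelihood test, Benjamini-Hochberg adjusted over all peaks. A peak is called opened or closed at an adjusted p under 0.05. On this scale strong peaks had lower and weak peaks higher values after the pulses, over the whole genome, so results at peaks are set, where given, beside peaks of like abundance or beside loess offsets, a scaling that removes the trend of fold change with abundance.

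The starts of 5 of the 6 genes lay under a peak, against 73.3% of all 20007 protein-coding genes, and that of CEBPE did not. In unstimulated cells the start peak of CEBPG was at 39.0 ± 3.99 CPM per kb of peak (mean ± SD, n = 6), that of CEBPD at 37.4 ± 3.65, that of CEBPB at 30.6 ± 1.24, that of CEBPA at 24.7 ± 3.66 and that of CEBPZ at 18.8 ± 2.15. These levels sat at the 83.2, 81.5, 72.7, 61.5 and 46.7 percentile of the start peaks of all protein-coding genes. CEBPG and CEBPD overlapped in range, whereas every CEBPB library lay above every CEBPA library, and CEBPA and CEBPZ overlapped at the edge (lowest CEBPA library 19.7, highest CEBPZ library 22.1 CPM per kb). The order was the same in DMSO libraries, from 29.3 ± 3.73 for CEBPG and 28.0 ± 2.84 for CEBPD to 22.2 ± 2.48 for CEBPB, 18.5 ± 1.10 for CEBPA and 16.3 for CEBPZ, whose libraries ranged from 14.8 to 18.2. After belinostat CEBPD (25.5 ± 4.35) and CEBPG (25.0 ± 3.06) lay within an SD of each other, ahead of CEBPB (18.8 ± 3.79), CEBPA (16.0 ± 2.87) and CEBPZ (14.9 ± 2.36). The CEBPZ peak also covers the start of NDUFAF7, a mitochondrial assembly factor gene transcribed the other way, so its count belongs to both.

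**Figure D1:**
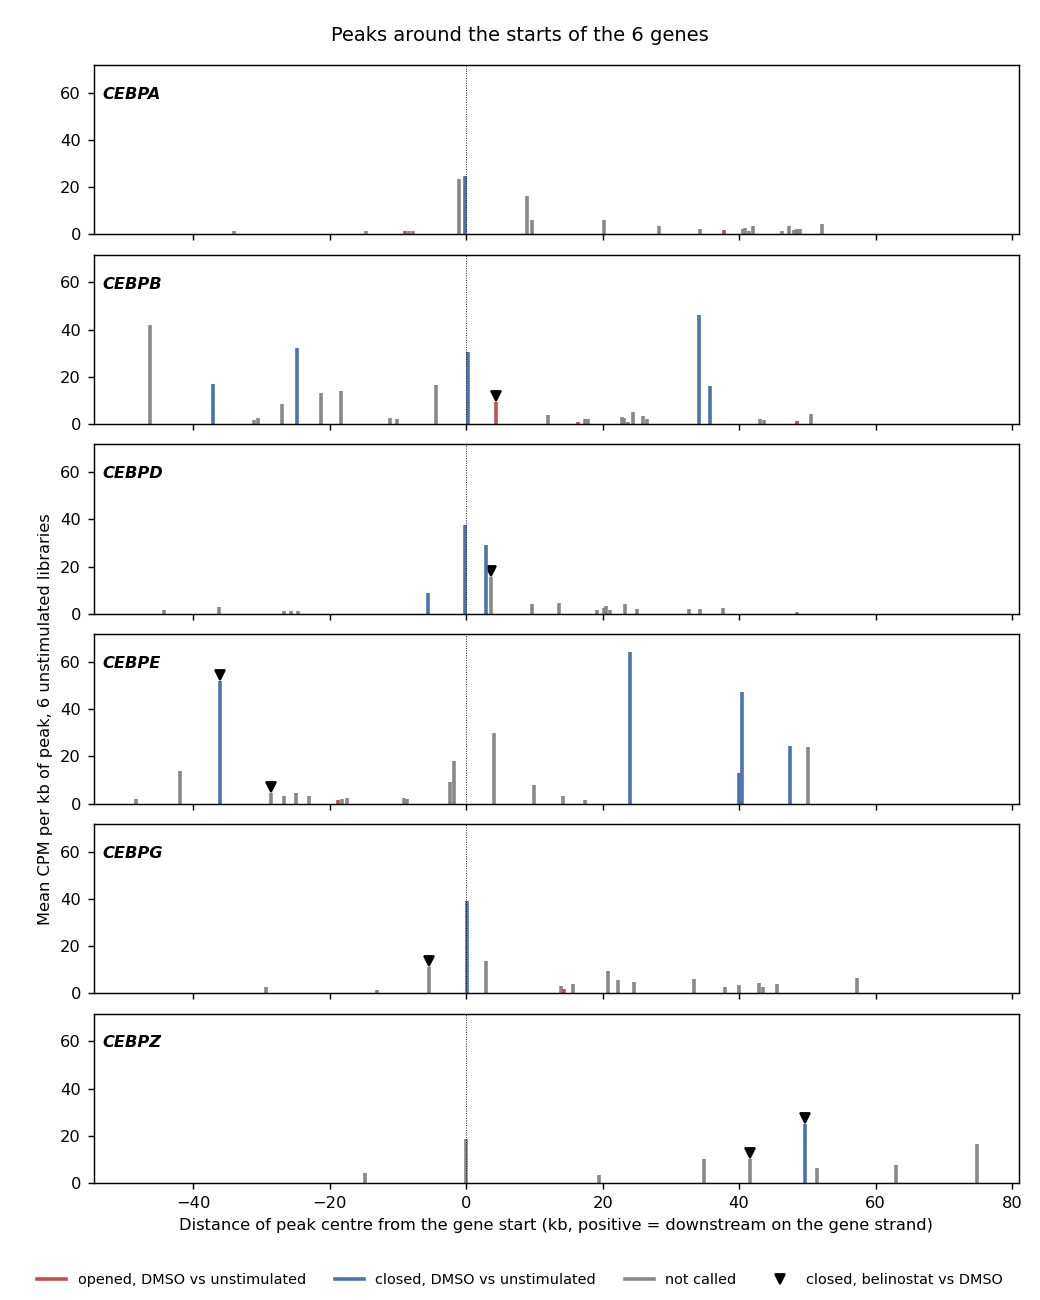
Peaks in the 6 windows by the distance of the peak centre from the gene start (kb, along the gene's strand); bar height is the mean CPM per kb of peak in the 6 unstimulated libraries, colour gives the call in DMSO against unstimulated libraries and black triangles mark peaks closed in belinostat against DMSO libraries. CEBPA, CEBPD and CEBPG have their highest bar at the start, and CEBPB has bars higher than that of its start at -46371, -24745 and 34059 bp. The highest bars of the CEBPE window lie over transcript starts of ACIN1, C14orf119 and SLC7A8, some of them alternative starts, rather than over that of CEBPE.

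CEBPE, the granulocyte member, had its nearest peak at -1721 bp from the start, at 18.0 CPM per kb in unstimulated libraries. That peak ranged from 2.72 to 3.10 log2 CPM with a median of 2.90 in unstimulated, from 2.10 to 2.81 with a median of 2.60 in DMSO, and from 1.96 to 2.67 with a median of 2.28 in belinostat libraries. Unstimulated and DMSO libraries overlapped, and the change of -0.33 ± 0.15 (log2, SE) between them did not pass (adjusted p = 0.0983). A stronger intergenic peak, at 4075 bp beyond the CEBPE start and with CEBPE as its nearest gene, ranged from 4.16 to 4.86 with a median of 4.52 in unstimulated, from 4.24 to 4.42 with a median of 4.29 in DMSO, and from 3.97 to 4.33 with a median of 4.04 in belinostat libraries. The groups overlapped, and it was called neither after the pulses (-0.22 ± 0.11, adjusted p = 0.156) nor after belinostat (-0.23, adjusted p = 0.324). The other 4 of the 5 peaks over 3 log2 CPM in the CEBPE window lie over annotated transcript starts of its neighbours ACIN1, C14orf119 and SLC7A8, an amino acid transporter gene. The peak at 23991 bp has its centre 128 bp from the main start of ACIN1. Those at 40380 and -36060 bp lie over alternative starts, 16261 bp from the main start of ACIN1 and 28345 bp from that of SLC7A8. The peak at 47519 bp lies further inside ACIN1.

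The first comparison, DMSO against unstimulated libraries, addresses what remained after the cytokine pulses. The start peaks of CEBPA, CEBPB, CEBPD and CEBPG were lower after the pulses, each by about as much as peaks of like abundance. In the 123 peaks 7 opened (5.69%, against 9.51% of all peaks) and 16 closed (13.0%, against 9.73%). With loess offsets 2 opened (1.63%, against 2.0%) and 3 closed (2.44%, against 1.91%). Of the 20 peaks over 3 log2 CPM 13 closed and 0 opened, with a median change of -0.36, and of all 29744 such peaks 66.5% closed, with a median of -0.36. Of the 71 peaks under 1 log2 CPM 6 opened and 0 closed, with a median of 0.44, against 12.2% opened and a median of 0.40 over all such peaks.

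CEBPB is the member most often tied to cytokine signals. Its start peak ranged from 5.30 to 5.47 log2 CPM with a median of 5.38 in unstimulated, from 4.75 to 5.14 with a median of 4.92 in DMSO, and from 4.32 to 5.08 with a median of 4.68 in belinostat libraries. All DMSO libraries lay below all unstimulated ones, as the start peaks by library show. The change was -0.47 ± 0.11 (adjusted p = 0.00121), beside a median of -0.38 over 3407 peaks of like abundance (within 0.25 log2 CPM), of which 14.1% fell further. It held in all 18 fits that left out 1 library, with an adjusted p of at most 0.00722, and was -0.08 with loess offsets (adjusted p = 0.489).

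The other start peaks followed in the same range. The CEBPD start peak ranged from 5.81 to 6.14 with a median of 5.93 in unstimulated and from 5.37 to 5.78 with a median of 5.55 in DMSO libraries, without overlap, a change of -0.42 ± 0.10 (adjusted p = 0.00263). The CEBPA start peak ranged from 4.55 to 5.10 with a median of 4.88 and then from 4.34 to 4.57 with a median of 4.48, where 1 unstimulated library reached into the DMSO range, a change of -0.42 ± 0.11 (adjusted p = 0.00465). The CEBPG start peak ranged from 5.29 to 5.68 with a median of 5.52 and then from 4.96 to 5.34 with a median of 5.02, with overlap, a change of -0.41 ± 0.11 (adjusted p = 0.00359). Over all start peaks of protein-coding genes 62.3% closed in this comparison, and the median change per gene was -0.34. With loess offsets the changes were 0.00 for CEBPD, -0.05 for CEBPA and -0.01 for CEBPG, with adjusted p of 1, 0.75 and 0.929. The CEBPZ start peak was not called, at -0.20 ± 0.11 (adjusted p = 0.172), and 96.0% of 4295 peaks of like abundance fell further.

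**Figure D2:**
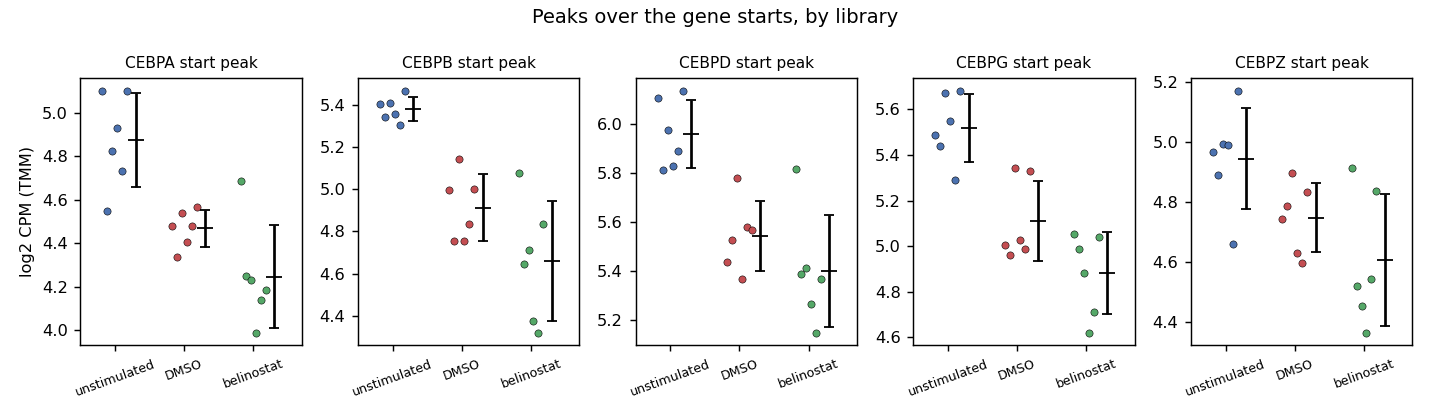
log2 CPM (TMM scaled) of the peak over the start of CEBPA, CEBPB, CEBPD, CEBPG and CEBPZ in each of the 18 libraries; points are libraries, bars the mean ± SD of 6. For CEBPB and CEBPD all 6 DMSO libraries lie below all 6 unstimulated ones, and for CEBPZ the groups overlap.

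Distal peaks of the CEBPB window changed in both directions. The strong peak at 34059 bp ranged from 5.13 to 5.47 with a median of 5.21 log2 CPM in unstimulated, from 4.47 to 5.00 with a median of 4.69 in DMSO, and from 3.60 to 4.69 with a median of 4.41 in belinostat libraries. Its sequence is the one above with a C/EBP and an AP-1 word, and DMSO libraries lay below unstimulated ones without overlap. The change was -0.56 ± 0.11 (adjusted p = 0.000184), beside -0.37 in 4174 peaks of like abundance, of which 4.10% fell further. With loess offsets it was -0.17 (adjusted p = 0.124). The weaker peak next to it, at 35805 bp, ranged from 1.49 to 2.38 with a median of 1.94 and then from 0.70 to 1.82 with a median of 1.15. That change, -0.84 ± 0.21 (adjusted p = 0.00267), was past the threshold under all 8 alternative settings, loess offsets included (-0.73, adjusted p = 0.0233), and in all 18 fits with a library left out, although the groups overlapped.

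The CEBPB peak at 4380 bp went the other way from other peaks of its abundance. It ranged from 1.82 to 2.29 with a median of 2.05 log2 CPM in unstimulated, from 2.15 to 2.85 with a median of 2.43 in DMSO, and from 1.70 to 2.01 with a median of 1.97 in belinostat libraries. DMSO libraries were the highest group, with an overlap at the edge with unstimulated libraries and none with belinostat libraries. It opened after the pulses by 0.44 ± 0.17 (adjusted p = 0.047), where 14567 peaks of like abundance had a median of -0.25 and 98.1% lay below it. With loess offsets the rise was 0.66 (adjusted p = 0.00534). The call held in 9 of 18 fits with a library left out (highest adjusted p 0.137) and in 6 of 8 alternative settings, with an adjusted p of up to 0.956 under TMM factors from weaker peaks.

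Other peaks that opened were weak, near the count of a few fragments per library. The CEBPB peak at 16383 bp ranged from -1.81, the value of a library without a fragment there, to -0.89 in unstimulated and from -0.54 to 0.45 in DMSO libraries. These groups did not overlap, the change was 2.28 ± 0.57 (adjusted p = 0.00272), and loess offsets gave 1.77 (adjusted p = 0.0584). The CEBPA peaks at -8959 and 37775 bp opened by 1.39 ± 0.45 (adjusted p = 0.0199) and 1.16 ± 0.37 (adjusted p = 0.0198), with overlapping groups, and their loess changes of 1.00 and 0.84 did not pass (adjusted p = 0.182 and 0.174). The CEBPG peak at 14303 bp, in an exon of PEPD, a peptidase gene, opened by 1.10 ± 0.39 (adjusted p = 0.0329), and the CEBPB peak at 48563 bp by 1.37 ± 0.48 (adjusted p = 0.0332). Neither passed with loess offsets (adjusted p = 0.194 and 0.256).

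The CEBPD peak at 3706 bp, in an intron of the neighbouring repair gene SPIDR, hardly moved on the TMM scale, at 0.09 ± 0.14 (adjusted p = 0.684). It ranged from 2.82 to 3.53 with a median of 3.31 in unstimulated and from 3.12 to 3.54 with a median of 3.39 in DMSO libraries, which overlap. Peaks of like abundance fell by a median of 0.33, 97.2% of them lay below it, and with loess offsets it was called as opened, at 0.40 (adjusted p = 0.0224). In the CEBPE window the ACIN1 and C14orf119 start peak at 23991 bp closed by -0.36 ± 0.10 (adjusted p = 0.00684, loess 0.071 with adjusted p = 0.377) and the weak ACIN1 intron peak at 40001 bp by -0.72 ± 0.25 (adjusted p = 0.0286). The loess change of the intron peak was -0.71 (adjusted p = 0.0806).

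**Figure D3:**
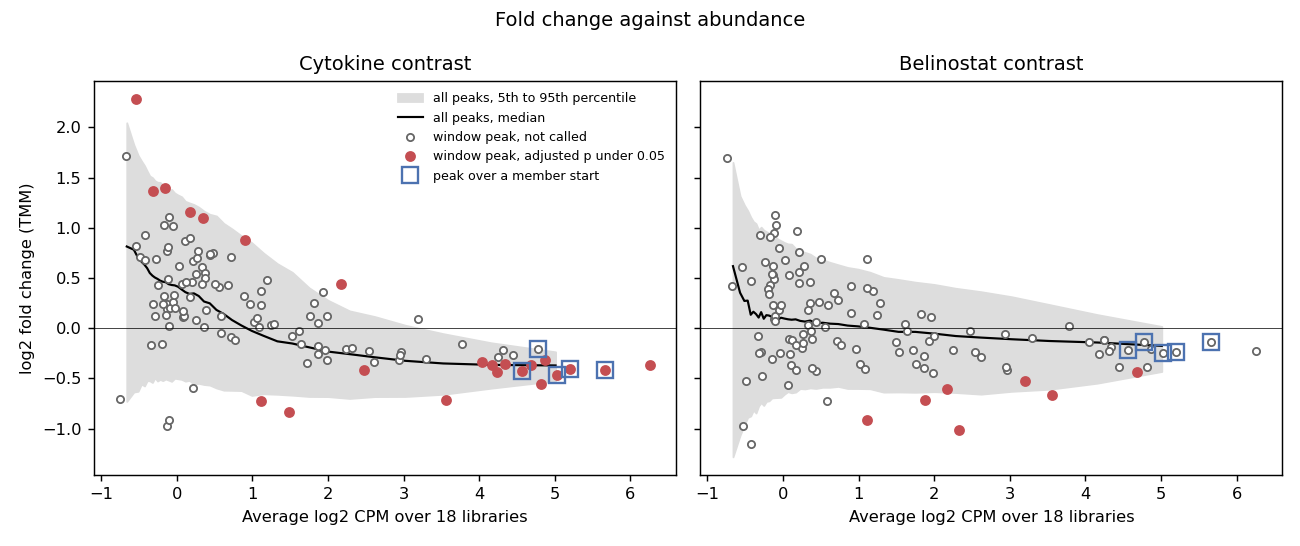
log2 fold change (TMM) of the 123 peaks against their average log2 CPM over 18 libraries, DMSO against unstimulated on the left and belinostat against DMSO on the right; the line is the median and the band the 5th to 95th percentile of all peaks, filled points passed and squares are peaks over a member start. On the left the line is below 0 for strong peaks, the start peaks of CEBPA, CEBPB, CEBPD and CEBPG lie near it and that of CEBPZ above it; on the right the 7 filled points lie below the line.

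Belinostat against DMSO libraries addresses what the inhibitor changed in pulsed cells. None of the 123 peaks opened (0.0%, against 0.607% of all peaks) and 7 closed (5.69%, against 1.75%). At an unadjusted p under 0.05, 11 were higher and 19 lower, counts that are not set beside a share over all peaks. With loess offsets 0 opened (against 0.945%) and 3 closed (2.44%, against 1.51%), and with DESeq2 3 closed (against 3956 of all 334857). By abundance, 3 of the 20 peaks over 3 log2 CPM closed (against 9.81% of all such peaks), 4 of the 32 from 1 to 3 log2 CPM (against 3.99%) and 0 of the 71 weaker ones (against 0.127%). The 7 lay in the windows of 5 genes, 2 each for CEBPE and CEBPZ and 1 each for CEBPB, CEBPD and CEBPG, and none was the start peak of a member. Leaving out belinostat replicate 2 or replicate 3 left 2 of these calls, belinostat replicate 5 or DMSO replicate 2 left 3, and belinostat replicate 4, DMSO replicate 3 or DMSO replicate 6 left 4.

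The peak upstream of CEBPG had the largest change of the 7. At -5485 bp it ranged from 2.23 to 3.11 with a median of 2.61 log2 CPM in unstimulated, from 2.33 to 2.79 with a median of 2.43 in DMSO, and from 0.96 to 1.89 with a median of 1.59 in belinostat libraries. Every belinostat library lay below every library of the other groups. It closed by -1.01 ± 0.19 (adjusted p = 0.00013), where 13518 peaks of like abundance had a median of -0.08 and 0.81% fell further. The call held under all 8 alternative settings (highest adjusted p 0.00179), loess offsets included (-0.92, adjusted p = 0.000367), and in all 18 fits with a library left out. After the cytokine pulses the same peak had not been called, at -0.19 ± 0.16 (adjusted p = 0.398). Its central 300 bases, printed above, held none of the 6 words searched, and it lies between CEBPA and CEBPG outside any annotated gene.

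The peak at 49682 bp in the CEBPZ window, in an intron of the sulfotransferase gene SULT6B1, was lower in each comparison. It ranged from 3.94 to 4.39 with a median of 4.09 in unstimulated, from 3.11 to 3.61 with a median of 3.44 in DMSO, and from 2.32 to 3.42 with a median of 2.72 in belinostat libraries. DMSO lay below unstimulated libraries without overlap, and belinostat replicate 1 alone of its group reached into the DMSO range. The change after the pulses was -0.72 ± 0.13 (adjusted p = 1.84e-05), and that after belinostat -0.67 ± 0.15 (adjusted p = 0.00178). Loess offsets gave -0.38 (adjusted p = 0.00947) and -0.53 (adjusted p = 0.00245). These comparisons share the DMSO libraries. Both held in all 18 fits with a library left out, and 2.87% and 3.75% of peaks of like abundance fell further.

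The CEBPB peak at 4380 bp, which had opened after the pulses, closed after belinostat by -0.60 ± 0.18 (adjusted p = 0.038), to a level that did not differ detectably from unstimulated libraries (-0.17 ± 0.19, adjusted p = 0.524). The rise and the fall share the same 6 DMSO libraries, so they are not independent of each other. The fall had a loess value of -0.52 (adjusted p = 0.0738) and held in 9 of 18 fits with a library left out (highest adjusted p 0.155).

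The other 4 peaks closed by belinostat were nearer the threshold. The CEBPD peak at 3706 bp ranged from 2.26 to 3.33 with a median of 2.78 in belinostat libraries, overlapping DMSO libraries, and closed by -0.53 ± 0.15 (adjusted p = 0.0241, loess adjusted p = 0.0614). In the CEBPE window the peak at -36060 bp, over an alternative SLC7A8 start, closed by -0.43 ± 0.12 (adjusted p = 0.0188, loess adjusted p = 0.0644). The SLC7A8 intron peak at -28630 bp closed by -0.91 ± 0.27 (adjusted p = 0.037, loess adjusted p = 0.0382). The peak at 41639 bp in the CEBPZ window, over an alternative SULT6B1 start, closed by -0.72 ± 0.21 (adjusted p = 0.0372, loess adjusted p = 0.0668). In all of these the groups overlapped, and 10 to 14 of 18 fits with a library left out kept the call.

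**Figure D4:**
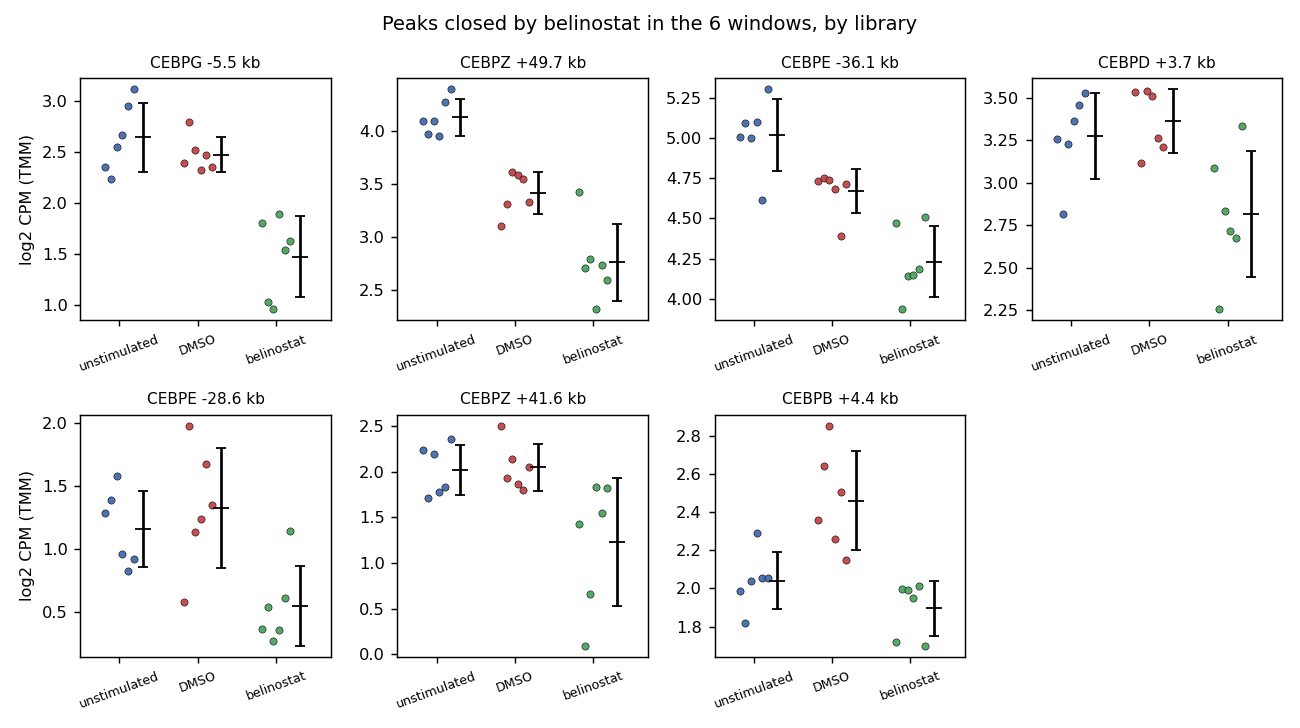
log2 CPM (TMM scaled) of the 7 peaks closed in belinostat against DMSO libraries, in each of the 18 libraries; points are libraries, bars the mean ± SD of 6, and titles give the distance from the gene start in kb. The CEBPG and CEBPB peaks separate belinostat from DMSO libraries without overlap, and the other 5 overlap.

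The start peaks of the 5 genes were not called between belinostat and DMSO libraries. Their changes were -0.25 ± 0.11 for CEBPB (adjusted p = 0.257), -0.23 ± 0.11 for CEBPG (adjusted p = 0.274), -0.22 ± 0.12 for CEBPA (adjusted p = 0.346), -0.14 ± 0.11 for CEBPD (adjusted p = 0.527) and -0.14 ± 0.11 for CEBPZ (adjusted p = 0.564). The CEBPA peak at 41389 bp had the smallest p of that window, with a change of 0.97 ± 0.35 that did not pass (adjusted p = 0.137).

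Belinostat against unstimulated libraries, the residual comparison, shares its groups with both others. Of the 123 peaks 21 opened (17.1%, against 16.8% of all peaks) and 31 closed (25.2%, against 13.7%). With loess offsets 10 opened (8.13%, against 3.82%) and 6 closed (4.88%, against 4.93%). Among the 20 peaks over 3 log2 CPM 19 closed, where 84.8% of all such peaks did. Start peaks closed for all 5 genes that have one, by -0.71 ± 0.11 for CEBPB, -0.64 ± 0.12 for CEBPA, -0.64 ± 0.11 for CEBPG, -0.56 ± 0.11 for CEBPD and -0.34 ± 0.11 for CEBPZ, and so did 72.7% of all start peaks. With loess offsets the CEBPZ value changed sign, to 0.23 (adjusted p = 0.0214).

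Of the 21 peaks that opened between unstimulated and belinostat libraries 19 were under 1 log2 CPM. These were 19 of 71 such peaks in the windows, where 22.1% of all peaks under 1 log2 CPM opened. The other 2, chosen here after their values were seen, were the CEBPD peak at -25649 bp (0.85 ± 0.25, adjusted p = 0.00636) and the CEBPA peak at 34321 bp (0.77 ± 0.25, adjusted p = 0.0128), and both passed with loess offsets (adjusted p = 0.0137 and 0.0307). The CEBPB peaks at 23697 and 26492 bp had medians of -0.64 and -0.51 log2 CPM in unstimulated and of 0.25 and 0.64 in belinostat libraries. They rose by 1.93 ± 0.46 (adjusted p = 0.00055) and 1.82 ± 0.43 (adjusted p = 0.000561), and both passed with loess offsets (adjusted p = 0.0317 and 0.0311). The CEBPA peak at 46284 bp rose by 1.75 ± 0.43 (adjusted p = 0.000934, loess adjusted p = 0.0478) and the CEBPG peak at 14303 bp by 1.56 ± 0.38 (adjusted p = 0.000707, loess adjusted p = 0.0237). The CEBPD peak at 48498 bp, at 150 bp among the narrowest of the table, rose by 2.13 ± 0.66 (adjusted p = 0.0089), which loess offsets did not keep (adjusted p = 0.236). The largest falls were those at 49682 bp of CEBPZ (-1.38 ± 0.14), -5485 bp of CEBPG (-1.20 ± 0.19), 35805 bp (-0.97 ± 0.22) and 34059 bp (-0.94 ± 0.12) of CEBPB, and -36060 bp of CEBPE (-0.79 ± 0.11). Each of these 5 also passed with loess offsets, at adjusted p from 1.3e-10 to 0.0396.

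Counts were also summed per gene, over peaks in the body and the 3000 bp upstream, for 18887 protein-coding genes, with TMM factors of these sums. The sums of CEBPB and CEBPD each held 1 peak, the start peak above. They are the same counts on another scaling, and so no separate evidence. The CEBPB sum ranged from 5.41 to 5.48 log2 CPM with a median of 5.44 in unstimulated, from 5.06 to 5.37 with a median of 5.22 in DMSO, and from 4.83 to 5.27 with a median of 5.07 in belinostat libraries. DMSO lay below unstimulated libraries without overlap. After the pulses 3 of the 6 genes were lower (against 12.2% of all genes lower) and 0 higher (against 19.5%). These were CEBPB (-0.22 ± 0.06, adjusted p = 0.00921), CEBPD (-0.17 ± 0.05, adjusted p = 0.0164) and CEBPG (-0.15 ± 0.06, adjusted p = 0.0453), and CEBPA was at -0.17 ± 0.07 (adjusted p = 0.0519). CEBPE and CEBPZ were at 0.063 ± 0.13 and 0.056 ± 0.06 (adjusted p = 0.719 and 0.496). With loess offsets 0 were higher (against 13.5% of all genes) and 1 lower (against 7.45%), CEBPB at -0.19 (adjusted p = 0.021), and CEBPD and CEBPG did not pass (adjusted p = 0.0645 and 0.151). The same CEBPB counts had not passed with loess offsets fitted over peaks. Without unstimulated replicate 6, 1 of the 3 calls was left.

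Between belinostat and DMSO libraries 0 of the 6 gene sums were higher (against 1.76% of all genes) and 0 lower (against 3.72%), with the edgeR fit, with loess offsets (against 2.38% and 2.49%) and with DESeq2. At an unadjusted p under 0.05 CEBPB and CEBPG were lower, where 3999 of all 18887 genes passed in either direction. Between belinostat and unstimulated libraries 0 were higher (against 27.0%) and 4 lower (against 24.2%), CEBPB by -0.39 ± 0.07, CEBPA by -0.30 ± 0.07, CEBPG by -0.28 ± 0.06 and CEBPD by -0.23 ± 0.06. With loess offsets (all genes 19.9% higher and 17.8% lower) these 4 also passed, at adjusted p from 0.000121 to 0.0203. CEBPE was at -0.16 ± 0.14 (adjusted p = 0.334), with a loess value of -0.49 (adjusted p = 0.00396), and CEBPZ at 0.01 ± 0.07 (adjusted p = 0.895).

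**Figure D5:**
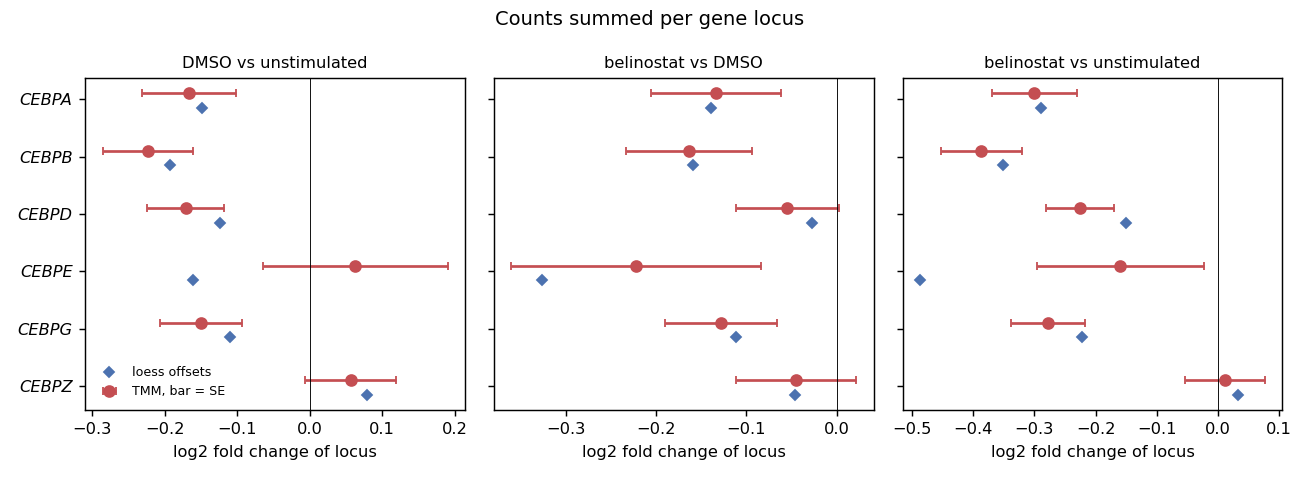
log2 fold change of the counts summed per gene, for the 6 genes in the 3 comparisons; circles are TMM values with their SE, diamonds the values with loess offsets. The CEBPA, CEBPB, CEBPD and CEBPG circles lie left of 0 in each panel, CEBPZ near 0, and CEBPE differs most between the scalings.

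Over the 18 libraries the gene sums of CEBPA, CEBPB, CEBPD and CEBPG followed each other, with Pearson r of log2 CPM from 0.52 for CEBPD with CEBPG to 0.80 for CEBPB with CEBPG. CEBPE and CEBPZ did not follow these 4, with r from -0.12 for CEBPD with CEBPZ to 0.25 for CEBPB with CEBPE. The gene sums most like each member were those of CCDC96 (r = 0.94) and PYGO1 (0.94) for CEBPB, PMS1 (0.93) and DCXR (0.92) for CEBPA, SLC4A7 (0.93) and PBX3 (0.93) for CEBPD, GPR108 (0.89) and PANK3 (0.88) for CEBPG, FLVCR2 (0.76) and TRPM3 (0.75) for CEBPZ, and ECT2L (0.74) and TTC6 (0.72) for CEBPE. These correlations are across 18 libraries in 3 groups that differ in depth and in signal over background.

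Genes of the C/EBP pathway were taken as 5 lists of 59 genes in all, 20 of them higher (against 19.5% of all genes) and 7 lower (against 12.2%) after the pulses on the TMM scale. With loess offsets 14 were higher (against 13.5%) and 3 lower (against 7.45%). With TMM of 10 kb bins the balance turned, to 11 higher and 23 lower, and so did that of all genes (2345 of 18887 higher and 10340 lower, median -0.21 against -0.018). Of 18 inflammatory and acute-phase targets 8 were higher (against 19.5% of all genes) and 0 lower (against 12.2%), with a median change of 0.33 where all 18887 genes had -0.018. With loess offsets 5 were higher (against 13.5%) and the median was 0.049. PTGS2, the inducible prostaglandin synthase, ranged from 3.09 to 3.54 log2 CPM in unstimulated and from 4.42 to 4.83 in DMSO libraries, without overlap, and rose by 1.47 ± 0.09 (adjusted p = 8.56e-12). C3, complement factor 3, rose by 0.88 ± 0.14 (adjusted p = 0.000109), the neutrophil chemokine gene CXCL5 by 0.99 ± 0.17 (adjusted p = 0.000291) and CXCL1 by 0.30 ± 0.07 (adjusted p = 0.00297). The acute-phase genes SAA1 and SAA2, near-identical neighbours whose reads may be split, rose by 1.05 ± 0.29 and 1.00 ± 0.21 (adjusted p = 0.00875 and 0.00142). SAA1, HP (1.01 ± 0.37) and CXCL8 (0.45 ± 0.17) passed with TMM but not with loess offsets, which gave 0.36 for SAA1 (adjusted p = 0.306), 0.17 for HP (adjusted p = 0.771) and -0.038 for CXCL8 (adjusted p = 0.907). Under TMM factors from weaker peaks, which shifted the median of all genes to -0.71, the CXCL1 and CXCL8 values turned negative, and those of PTGS2, C3, CXCL5, SAA1, SAA2 and HP stayed positive.

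Of 7 myeloid genes 5 were higher (against 19.5% of all genes) and 1 lower (against 12.2%) after the pulses, although Ccd18-Co is no myeloid line and SPI1, the myeloid master regulator, had no peak over its start. LTF (lactoferrin) rose by 0.57 ± 0.12, CSF3R (the G-CSF receptor) by 0.78 ± 0.19, GFI1 by 0.43 ± 0.11, SPI1 by 0.31 ± 0.09 and CSF1R by 0.19 ± 0.05, with adjusted p from 0.00146 to 0.0126, while ELANE, the elastase gene, was at -0.17 ± 0.06 (adjusted p = 0.0221, with loess offsets 0.0773). These 5 rises also passed with loess offsets, all but that of CSF3R turned negative under TMM factors from weaker peaks, and that of CSF1R was also just under 0 with TMM of 10 kb bins. Of 12 adipogenic genes 4 were higher and 2 lower, and with loess offsets 2 and 1, near the shares over all genes (19.5% and 12.2%, then 13.5% and 7.45%). The preadipocyte factor genes EBF1 (0.38 ± 0.04, adjusted p = 2.15e-06) and ZNF423 (0.34 ± 0.06, adjusted p = 0.000555) rose without overlap between the groups and also with loess offsets, and turned negative under TMM factors from weaker peaks. ADIPOQ (adiponectin) and LEP (leptin) were at 1.05 ± 0.30 and 0.53 ± 0.19 (adjusted p = 0.0103 and 0.0363, LEP negative under TMM factors from weaker peaks), KLF15 at -0.21 ± 0.06 (adjusted p = 0.0126) and CD36 at -0.15 ± 0.05 (adjusted p = 0.0128). With loess offsets KLF15 passed (adjusted p = 0.0335), and ADIPOQ (0.40, adjusted p = 0.257), LEP (0.066, adjusted p = 0.79) and CD36 (-0.11, adjusted p = 0.0962) did not.

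Of 13 zipper partners and inhibitors 3 were higher and 2 lower after the pulses, near the shares over all genes (19.5% and 12.2%), and with loess offsets 2 and 1. TRIB3, a pseudokinase gene, rose by 0.30 ± 0.06 (adjusted p = 0.00112), HLF by 0.33 ± 0.11 (adjusted p = 0.0254) and BATF by 0.19 ± 0.07 (adjusted p = 0.0369). These 3 values turned negative under TMM factors from weaker peaks, that of BATF also, barely, with TMM of 10 kb bins. TEF and NFIL3, both PAR-type or related zipper factors, were at -0.19 ± 0.04 (adjusted p = 0.00122) and -0.18 ± 0.06 (adjusted p = 0.0241). Of 9 upstream signal genes 0 were higher and 2 lower, CREB1, whose product binds the CEBPB promoter (-0.17 ± 0.04, adjusted p = 0.00575), and TRAF3IP2, the IL-17 receptor adaptor (-0.14 ± 0.04, adjusted p = 0.0196), against 19.5% and 12.2% of all genes. On the loess scale TRIB3, BATF, TEF and CREB1 were called too, but HLF (adjusted p = 0.0833), NFIL3 (adjusted p = 0.0842) and TRAF3IP2 (adjusted p = 0.0883) were not.

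After belinostat 2 of the 59 genes were higher (against 1.76% of all genes) and 3 lower (against 3.72%) than in DMSO libraries, as many as with loess offsets. LPL, the lipoprotein lipase, rose by 0.63 ± 0.16 (adjusted p = 0.0208) and HLF by 0.45 ± 0.11 (adjusted p = 0.0145). TNFAIP6 was at -0.43 ± 0.10 (adjusted p = 0.0111), the chemokine gene CXCL2 at -0.29 ± 0.08 (adjusted p = 0.0266) and ELANE at -0.33 ± 0.06 (adjusted p = 0.00279), and all 5 also passed with loess offsets. Neither PTGS2 (-0.16 ± 0.08, adjusted p = 0.275) nor C3 (0.17 ± 0.13, adjusted p = 0.464) was called. Between belinostat and unstimulated libraries 21 of the 59 were higher (against 27.0% of all genes) and 14 lower (against 24.2%), of which 9 and 2 were inflammatory targets. The loess scale gave 15 higher and 11 lower (against 19.9% and 17.8% of all genes).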

How the data were processed

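Bulk Omni-ATAC-seq fragment counts were taken as deposited. Per the methods and the labels, the authors ran the ENCODE ATAC-seq pipeline 2.2.3 (alignment to hg38), called peaks with MACS2 and counted fragments per consensus peak with csaw 1.32.0. The deposited values are raw counts for 334857 peaks and 18 libraries, not normalised. Peak starts were read as 0-based and increased by 1. The ChIPseeker 1.34.1 annotation was not used here. Genes were those of GENCODE 44.

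Counts were fitted with edgeR 4.0.16 (R 4.3.3; glmQLFit and glmQLFTest, TMM factors, all 18 libraries in 3 groups, Benjamini-Hochberg over all peaks or all gene sums, threshold 0.05). log2 CPM used a prior count of 2. The study normalised on 10 kb background bins. Since reads outside peaks were not used here, TMM of peak counts summed in 10 kb bins was an alternative, beside library totals, TMM of weaker peaks, loess offsets (span 0.3), DESeq2 1.42.0, a filter at log2 CPM 0, a replicate block, narrower windows, fits of 2 groups and leaving out each library. The fits were tested on simulated data. The 10000 bp windows held 7 peaks for CEBPA, 6 each for CEBPE and CEBPG, 5 for CEBPD, 4 for CEBPB and 3 for CEBPZ. The start peaks of 5 members are among these, and of all start peaks 72.7% closed in the residual comparison, against 13.7% of all peaks. After the pulses these shares were 62.3% and 9.73%.

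The members and lists were chosen with earlier results of these data known. Named peaks were, by rule, those over a member's start, the smallest p per window and comparison, and up to 5 largest rises and falls past the threshold. Libraries of a group differed by more than sampling noise (45 pairs, chi-square per degree of freedom 1.024 to 1.988, highest p 1.09e-09), so none was a resampling of another. This test cannot tell separate cultures from repeat libraries of 1 culture. All intervals between groups rest on 6 libraries each.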

Additional observations from a re-analysis of the deposited data

Results flagged for a closer look

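Groups of 6 were screened for a library that stands apart from its own group (a gap to the nearest library that takes up most of the whole range, by Dixon's criterion), over the named peaks and gene sums. Of 102 groups 2 had one, where chance gives about 1 in 20. In the CEBPE window, DMSO replicate 5 was at 4.39 log2 CPM in the peak at -36060 bp, over an alternative SLC7A8 start, below the next DMSO library at 4.68 (gap over range 0.809). At the CEBPA start peak, at -178 bp, belinostat replicate 1 was at 4.69 log2 CPM, above the next belinostat library at 4.25 (gap over range 0.627). The latter library was also the highest of its group at the CEBPB and CEBPD start peaks, as the plot of start peaks shows.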

How the results depend on the processing

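The counts of called peaks moved mostly with the scaling, and the cause was not tested. Of the 123 peaks, after the pulses 7 opened and 16 closed, against 16 and 6 with library totals, 1 and 38 with TMM of weaker peaks, and 2 and 3 with loess offsets. 2 opened with DESeq2 and 4 with the filter on log2 CPM over 0. Of all 334857 peaks 31861 opened and 32570 closed, against 54265 and 10894 with library totals. TMM of weaker peaks gave 7584 and 83810 over all peaks, and loess offsets 6710 and 6381. DESeq2 opened 15216 of all peaks, and the filter 17406 of the 200098 it kept. Belinostat closed 7, against 3 each with DESeq2, TMM of weaker peaks and loess offsets. Over all peaks it closed 5865, against 3956, 3325 and 5070 in that order. In the residual comparison 21 opened and 31 closed, against 37 and 17 with library totals and 10 and 6 with loess offsets, while 5 opened with TMM of weaker peaks and 13 with the filter. Over all peaks 56111 opened and 45962 closed there, against 101897 and 21124 with library totals and 12787 and 16493 with loess offsets. TMM of weaker peaks opened 9267 of all peaks, and the filter 25293 of 200098. Windows of 10000 bp (3 to 7 peaks each) gave 3 opened and 6 closed, 3 closed, and 3 opened and 14 closed in the 3 comparisons. The median of all peaks after the pulses moved from 0.13 to 0.34 with library totals and to -0.29 with TMM of weaker peaks.

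Of the 6 gene sums 3 were lower after the pulses, against 6 with TMM of weaker peaks and 1 with loess offsets, and belinostat lowered 1 in place of 0 when peaks were given to the nearest start. Of all 18887 genes 2307 were lower after the pulses, against 15329 with TMM of weaker peaks and 1407 with loess offsets. Belinostat lowered 703 of all genes, against 935 of 19114 with the nearest start. Of the 59 pathway genes 20 were higher and 7 lower after the pulses, against 11 and 23 with TMM of 10 kb bins (median of all genes -0.21) and 1 and 41 with TMM of weaker peaks (-0.71), while loess offsets gave 3 lower and the nearest start 11 lower. Of all genes 3687 were higher, against 2345 with 10 kb bins and 353 with weaker peaks, where 10340 and 15329 were lower. The nearest start gave 4138 of 19114 lower. In the residual comparison 21 and 14 became 13 and 29 with 10 kb bins and 2 and 44 with weaker peaks, and after belinostat 2 and 3 became 0 and 0 with weaker peaks. Over all genes the residual counts of 5102 and 4573 became 2842 and 11439, and 332 and 15806. Those after belinostat, 333 and 703, became 1 and 2.

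With 1 library left out, 3 to 8 peaks opened and 10 to 18 closed after the pulses, 0 to 1 opened and 2 to 10 closed with belinostat, and 13 to 23 opened and 26 to 31 closed in the residual comparison. Over all peaks 18497 to 35956 opened and 20700 to 37123 closed after the pulses, and 1010 to 2864 and 3900 to 8703 with belinostat. In the residual comparison 37404 to 65269 of all peaks opened and 38926 to 50162 closed. Opened peaks after the pulses were 3 without DMSO replicate 4 and 4 without DMSO replicate 1 or unstimulated replicates 1, 2, 4 or 6. Closed peaks after the pulses were 10 without unstimulated replicate 6, 1 peak opened with belinostat without DMSO replicate 6, and 13 opened in the residual comparison without belinostat replicate 4. Gene sums gave 1 to 4, 0 to 0 and 4 to 4 lower, and 0 to 0 higher in each comparison. Over all genes 1101 to 2824, 422 to 1176 and 3656 to 5376 were lower. Pathway genes gave 15 to 21 higher and 4 to 9 lower after the pulses, 1 to 2 and 2 to 8 with belinostat, and 17 to 21 and 12 to 16 in the residual comparison, with 8 lower without belinostat replicate 1, 1 higher without DMSO replicate 6 or belinostat replicates 4 or 5, and 4 lower after the pulses without unstimulated replicate 6.

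With loess offsets 7 values of the named peaks changed sign, to 0.23 and 0.0016 for the CEBPZ peak at -94 bp and the CEBPD peak at 3706 bp (both residual), to 0.00 and 0.068 for the CEBPD start peak after the pulses and in the residual comparison, to 0.071 and 0.078 for the CEBPE peak at 23991 bp in the same comparisons, and to 0.020 for the CEBPE peak at -36060 bp after the pulses. Gene sums also changed sign after the pulses, among them those of CEBPE, CXCL8, LCN2 and LPL, at -0.16, -0.038, -0.14 and -0.31 with loess offsets.

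The replicate numbers are shared by the groups but did not pair the libraries. Same-numbered libraries correlated at -0.20 to 0.11 in 18 pairs, 4 of them best with their own number. With a replicate block the calls became 7 opened and 17 closed after the pulses, 0 and 9 with belinostat, 20 and 31 in the residual comparison, and 4 gene sums lower after the pulses, none moved by over 1.5 times. Over all peaks the block gave 32344 and 34536, 1902 and 6230, and 54150 and 46357, and 2409 gene sums lower after the pulses. Depth limits the weak peaks, whose values rest on a few fragments a library.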
